A study of Homo sapiens with 8 samples.

Results

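PC3, a human line derived from a bone metastasis of prostate carcinoma, was set against RWPE-1, an epithelial line from non-malignant prostate that was immortalized with papillomavirus sequences and that the labels name as the normal control. Of the 8 samples in the series, the 4 that belong to these 2 lines were chosen by line name: a methylation array and an expression array for PC3, and the same pair for RWPE-1. The labels give no treatment and no repeat array or culture for either line. The other 4 samples are the same pair of arrays for the prostate cancer lines DU145 and LNCaP-FGC, whose values are placed beside those of PC3 where they show the range between lines. With 1 array per line and assay, no error can be put on a difference and no test was made. All differences are therefore described by size, and none has a replicate check.

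PC3 grows without androgen and is widely used as a model of advanced prostate cancer. RWPE-1 keeps features of the prostate epithelium but carries viral genes that act on the cell cycle, so it is a growing line and not resting tissue. DNA methylation is the addition of a methyl group to cytosines at CpG dinucleotides. CpG-rich promoters are mostly unmethylated in normal cells, and their methylation is commonly associated with silent genes, while CpG sites elsewhere in the genome are mostly methylated. Cancer cells are known for gains at some CpG-rich promoters beside losses in other parts of the genome.

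The methylation array reports a beta value per CpG site, the methylated share of the signal on a scale of 0 to 1. Of 27578 sites, 13 were blank in PC3 or RWPE-1 (6 in PC3, 8 in RWPE-1), which left 27565 sites. The expression array reports a fluorescence intensity for each of 48803 probes. Intensities averaged 867 in PC3 and 665 in RWPE-1, with medians of 154 in PC3 and 151 in RWPE-1. The tables used here give array identifiers and no gene for either assay, so the identity of the lines could not be checked against marker genes, no gene can be named, and sites were not joined to probes. Identifiers are given for the largest differences of each kind.

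The first comparison asked where the methylation of PC3 departed from that of RWPE-1. Most sites were alike in both lines, with a median absolute difference in beta of 0.0302, and 58.5% of sites differed by less than 0.05. A difference of at least 0.3 in beta was found at 14.7% of sites. PC3 was higher at 2773 of these sites (10.1% of all sites, called gains) and lower at 1273 (4.62%, called losses). The room to move was unequal. In RWPE-1, 17998 sites had a beta below 0.2 and could not lose 0.3, while 3647 lay above 0.8 and could not gain it. The excess of gains over all sites is therefore not a rate among sites free to move. Gains were also more often large, since 50.5% of gains and 39.2% of losses reached at least 0.5 in beta. At 685 sites the difference was at least 0.7, with PC3 higher at 574 of them and lower at 111. The room to move bears on these sizes too. The median RWPE-1 beta was 0.123 at gains and 0.744 at losses, and more sites lay near the lower end of the scale. Close to the threshold there were 164 gains of 0.30 to 0.32 and 153 sites with a positive difference of 0.28 to 0.30. For losses there were 86 of 0.30 to 0.32 and 111 sites with a negative difference of 0.28 to 0.30, a larger part of their total.

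A small shift ran in the same direction. PC3 was higher than RWPE-1 at 69.1% of all sites, with a median difference of 0.0107 in beta. At sites picked on the other lines alone, the shift was visible at both ends of the scale, but at the upper end it depended on the choice of sites. At 12262 sites with a beta below 0.1 in DU145 and LNCaP-FGC, the median was 0.0376 in PC3 and 0.0266 in RWPE-1. At 965 sites above 0.9 in those lines, the median was 0.931 in PC3 and 0.909 in RWPE-1. A difference between the scales of the 2 arrays and a difference between the cells cannot be told apart for shifts of this size, which lie far below the 0.3 threshold. The sites picked on the other lines differed in how often they held large differences. Among the 12262 low sites, 1.83% differed by at least 0.3, with 202 gains and 22 losses in PC3, while 20.5% of the 965 high sites did, with 175 gains and 23 losses.

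**Figure D1:**
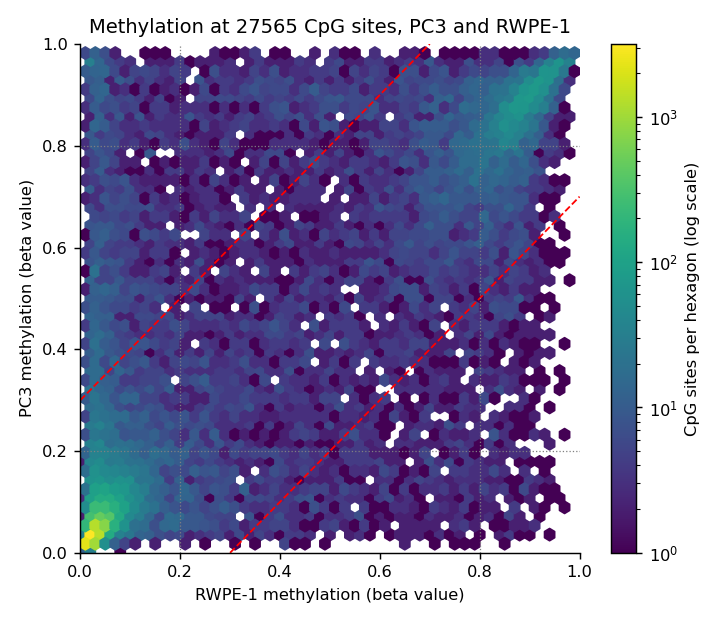
Beta values of PC3 (vertical axis) and RWPE-1 (horizontal axis) at 27565 CpG sites, with colour giving the number of sites per hexagon on a log scale. Red dashed lines mark differences of 0.3 and grey dotted lines the class limits of 0.2 and 0.8; most sites lie in the lower left corner, and more sites lie above the upper dashed line (2773) than below the lower (1273).

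Switches between the ends of the scale were separated from graded changes. A site was called unmethylated below a beta of 0.2, methylated above 0.8 and intermediate otherwise. In PC3, 16366 sites were unmethylated (59.4%), 6822 intermediate (24.7%) and 4377 methylated (15.9%), against 17998 (65.3%), 5920 (21.5%) and 3647 (13.2%) in RWPE-1. Switches to methylated, with a beta above 0.8 in PC3 and below 0.2 in RWPE-1, were found at 534 sites (1.94% of all sites). Their median beta was 0.90 in PC3 and 0.0575 in RWPE-1. Switches to unmethylated, with a beta below 0.2 in PC3 and above 0.8 in RWPE-1, were found at 127 sites (0.461%), with a median of 0.123 in PC3 and 0.862 in RWPE-1. Most differences were graded. Switches made up 19.3% of the gains and 9.98% of the losses.

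Far more sites were unmethylated than methylated in RWPE-1, so the switches were also set against their starting class. The 534 sites were 2.97% of those unmethylated in RWPE-1, and the 127 sites were 3.48% of those methylated in RWPE-1. The order of these shares depended on the class limits. With limits of 0.1 and 0.9, 204 sites (1.26%) were switches to methylated and 11 (0.886%) switches to unmethylated, and with limits of 0.25 and 0.75 the shares were 3.89% and 5.57%. When the 4 arrays were forced to a common distribution of betas, the shares were 2.39% and 4.46%. The balance of counts also moved under that scaling. Gains then made up 53.7% of the differing sites in place of 68.5%, and switches to methylated 66.6% of all switches in place of 80.8%.

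The graded gains and losses covered several routes. The graded gain with the most sites, 1209 of the 17998 unmethylated in RWPE-1, was intermediate in PC3. Its medians were 0.545 in PC3 and 0.0589 in RWPE-1. At 732 further sites that gained at least 0.3, of the 5920 intermediate in RWPE-1, PC3 was methylated. The medians there were 0.899 in PC3 and 0.411 in RWPE-1. The starting classes differ in size, so the order of these counts is not an order of rates. At 298 sites both lines were intermediate, with medians of 0.715 in PC3 and 0.289 in RWPE-1. Among graded losses, 526 sites were unmethylated in PC3 and intermediate in RWPE-1, with medians of 0.108 in PC3 and 0.582 in RWPE-1. Another 332 sites were intermediate in PC3 and methylated in RWPE-1, with medians of 0.429 in PC3 and 0.865 in RWPE-1, and at 288 sites both lines were intermediate. Of the losses that ended unmethylated, 526 came from the 5920 sites intermediate in RWPE-1 and 127 from the 3647 methylated ones. The rule favours the former, since a methylated site must cross the whole intermediate range to end unmethylated. An intermediate beta from a bulk culture may stem from part of the cells or part of the alleles, and these cannot be told apart.

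The PC3 betas of differing sites were spread over the part of the scale that the rule leaves open, and not gathered at its ends. Of 1743 sites that gained at least 0.3 and were unmethylated in RWPE-1, 17.3% had a PC3 beta of 0.4 to 0.5, 17.6% of 0.5 to 0.6, 15.0% of 0.6 to 0.7 and 11.1% of 0.7 to 0.8. A beta of 0.8 to 0.9 was held by 15.2% of them and a beta above 0.9 by 15.4%. Of 459 sites that lost at least 0.3 and were methylated in RWPE-1, 22.9% had a PC3 beta of 0.4 to 0.5, the fullest step of the scale, and 10.5% had a PC3 beta below 0.1. The rule allows no gain to end below 0.3 and no loss to end above 0.7, so the steps beyond are empty by construction. Steps next to these limits are only partly open.

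The PC3 level followed that of RWPE-1 least in the middle of the scale. Of 16215 sites with an RWPE-1 beta below 0.1, 88.2% were unmethylated in PC3 and 2.31% methylated. Of 1783 sites with an RWPE-1 beta of 0.1 to 0.2, only 48.2% were unmethylated in PC3, 42.8% were intermediate and 8.97% methylated. The share of sites with a gain was 7.75% below an RWPE-1 beta of 0.1 and 27.3% at 0.1 to 0.2. At an RWPE-1 beta of 0.5 to 0.6, where a site can move 0.3 either way, gains (20.2%) and losses (20.9%) were about equally frequent, and the quartiles of the PC3 betas were 0.292 and 0.813. At 0.4 to 0.5, gains were found at 27.5% of sites and losses at 14.5%. At the top of the scale, 83.9% of 1242 sites above 0.9 in RWPE-1 were methylated in PC3, and 8.21% had lost at least 0.3. With 1 array per line, differences between these shares carry no test, and the error of an array could not be measured.

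**Figure D2:**
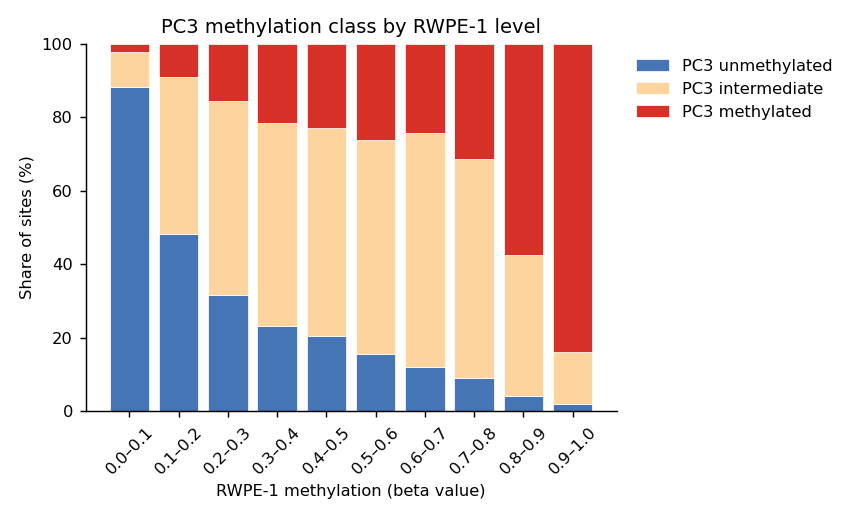
Share of sites (%) that were unmethylated, intermediate or methylated in PC3, for each step of 0.1 on the RWPE-1 beta scale. The unmethylated share was 88.2% in the lowest step and 2.09% in the highest, and intermediate sites made up 52.9% to 63.7% of each step from 0.2 to 0.8.

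At the methylation switches the other cancer lines lay between PC3 and RWPE-1 by the median. The rule favours this, as it puts PC3 and RWPE-1 at opposite ends of the scale. At the 534 switches to methylated the median beta was 0.90 in PC3, 0.536 in DU145 and 0.757 in LNCaP-FGC, against 0.0575 in RWPE-1. At 93 of 533 such sites measured in all lines (17.4%) both other cancer lines were methylated, and at 56 (10.5%) both were unmethylated, so PC3 stood alone there. Over all 17982 sites unmethylated in RWPE-1 these numbers were 218 (1.21%) and 13486. At the 127 switches to unmethylated the median was 0.123 in PC3, 0.855 in DU145 and 0.371 in LNCaP-FGC, against 0.862 in RWPE-1. At 17 of them (13.4%) both other cancer lines were methylated and at 5 (3.94%) both were unmethylated, where the shares over all 3645 sites methylated in RWPE-1 were 50.5% and 0.165%. Over all 1273 losses, DU145 had a median of 0.808 and LNCaP-FGC of 0.357, beside 0.194 in PC3 and 0.744 in RWPE-1. At these losses DU145 thus lay above RWPE-1 by the median, which was not particular to them. Over all sites intermediate in RWPE-1 the median was 0.771 in DU145 and 0.529 in RWPE-1. Over all sites methylated in RWPE-1 it was 0.902 in DU145 and 0.878 in RWPE-1. The same rules gave 760 switches to methylated and 42 to unmethylated in DU145, and 873 and 274 in LNCaP-FGC. All of these counts use the same RWPE-1 array and are set side by side without a comparison.

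Single sites illustrate both kinds. The largest switch to methylated was cg19616230, with a beta of 0.983 in PC3, against 0.0172 in RWPE-1. It was 0.977 in LNCaP-FGC and 0.0192 in DU145, so the 4 lines fell into a high and a low pair. The largest graded gain was cg13306164, with 0.7999 in PC3 and 0.0133 in RWPE-1, and it was 0.00931 in DU145 and 0.0187 in LNCaP-FGC. PC3 was the only line with more than a trace of signal there, and its beta was just short of the limit of 0.8 for a switch.

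In the other direction, the largest switch to unmethylated was cg02674804, with 0.0451 in PC3 and 0.940 in RWPE-1. DU145 was also high there, at 0.931, and LNCaP-FGC was intermediate at 0.615. The largest graded loss was cg08108311, with 0.0300 in PC3 and 0.798 in RWPE-1, so here RWPE-1 fell just short of the methylated class. DU145 stood at 0.960 and LNCaP-FGC at 0.237. These sites were picked for their size, and each kept its difference within 0.05 under the other scalings of the betas (0.786 to 0.789 at cg13306164 and -0.768 to -0.813 at cg08108311). Both graded sites crossed into the switch class with quantile-normalized betas, and cg08108311 also did with linearly rescaled betas.

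The second comparison asked which probes differed in expression, and how many of them crossed from background to a clear signal. Probes above the raw median of PC3 or RWPE-1 were compared (28640), on background-corrected and quantile-normalized log2 intensities. A difference of at least 2-fold was found at 22.8% of them. PC3 was higher at 3253 probes (11.4%) and lower at 3263 (11.4%), a balance that quantile normalization favours. The median log2 difference was 1.51 among the probes higher in PC3 and -1.66 among those lower, and at least 4-fold differences were found at 850 higher and 1116 lower probes. The order of these 4-fold counts turned with the scaling, since with arrays scaled to a common median, a recount added after seeing the data, 1182 probes were higher and 851 lower. A bulk intensity does not tell fewer expressing cells from less RNA per cell.

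Switches from or to background were few. Background was taken as a raw intensity at or below the array median, since no detection call was at hand. A probe was called switched on if it was at background in RWPE-1, above the 75th percentile in PC3 and at least 2-fold higher, and switched off for the reverse. In PC3, 407 probes were switched on (1.42%) and 393 switched off (1.37%). The probes switched on had a median raw intensity of 442 in PC3 (quartiles of 325 and 729) and 138 in RWPE-1. The probes switched off had a median of 140 in PC3 and 386 in RWPE-1 (quartiles of 297 and 689). Most switches therefore ended at a modest signal. The raw intensity in the bright line was a median of 2.92 times the RWPE-1 array median for probes switched on, and 2.50 times the PC3 array median for those switched off. These ratios are free of background correction and scaling, but the raw intensities still held background, judging from their values, which lowers the ratios. On corrected and normalized intensities, the median ratio to the median of the dim array was 3.49 for probes switched on. It was 3.41 for those switched off.

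Graded changes, with both lines above background, made up most differences. PC3 was higher at 2699 such probes (9.42%) and lower at 2711 (9.47%). Their typical levels were well above background. The probes higher in PC3 had medians of 1499 in PC3 and 396 in RWPE-1 in raw intensity, and the probes lower in PC3 had medians of 403 in PC3 and 1146 in RWPE-1. The remaining 147 higher and 159 lower probes left background without reaching the 75th percentile. Their median raw intensities were 236 in PC3 and 130 in RWPE-1 for the higher ones and 130 in PC3 and 224 in RWPE-1 for the lower ones.

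**Figure D3:**
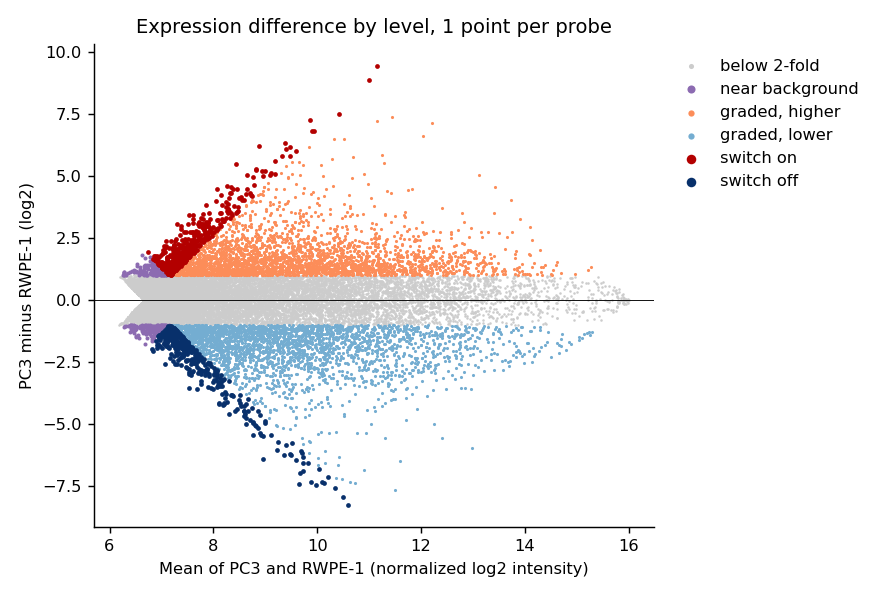
Difference between PC3 and RWPE-1 (log2, vertical axis) against the mean of both lines (normalized log2 intensity, horizontal axis), 1 point per compared probe, coloured by class. The 407 probes switched on and 393 switched off form the outer left edges of the cloud, and graded changes fill the range of brighter probes.

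The share of switches grew with the size of the difference. The class rule favours such a rise, since a large fold needs a dim line and a switch is defined by a dim line. Switches made up 12.5% of the probes at least 2-fold higher in PC3, 25.6% of those at least 4-fold higher, 36.1% at 8-fold, 44.1% at 16-fold and 52.3% at 32-fold. Among probes lower in PC3 the shares were 12.04%, 17.8%, 27.8%, 44.7% and 51.5% at the same sizes. Only 44 probes were at least 32-fold higher in PC3 and 66 at least 32-fold lower. Differences that start at background are measured against an uncertain floor. By raw intensity over the median of the dim array, 12 of the 23 switched-on probes and 18 of the 34 switched-off probes at that size reached 32-fold.

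**Figure D4:**
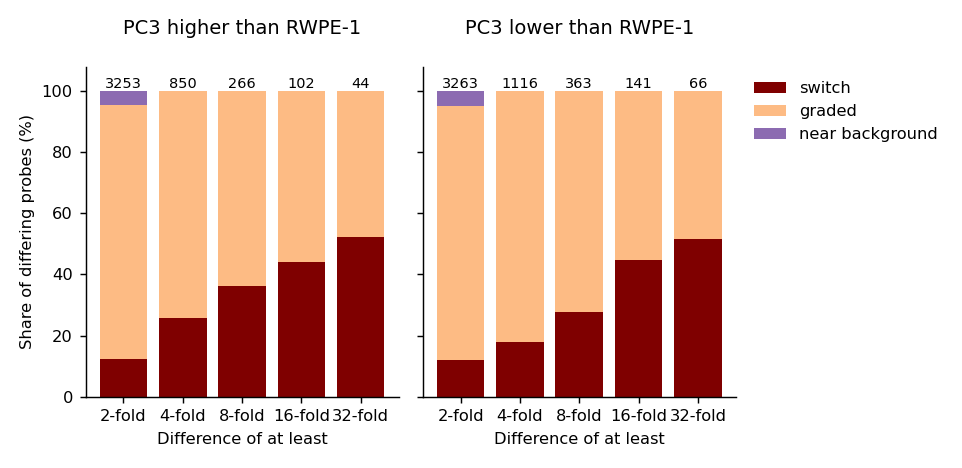
Share (%) of probes that were switches, graded changes or near background among those differing by at least 2-fold to 32-fold, with PC3 higher on the left and PC3 lower on the right; the number of probes stands above each bar. The switch share was 12.5% at 2-fold and 52.3% at 32-fold on the left, and 12.04% and 51.5% on the right.

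The balance of graded changes depended on how the arrays were scaled, and that of the switches did not. The upper part of the PC3 array was brighter. The ratio of PC3 to RWPE-1 raw intensity was 1.02 at the median, 1.05 at the 75th percentile, 1.26 at the 90th, 1.41 at the 95th and 1.47 at the 99th. Quantile normalization removes this difference, and scaling to a common median keeps it. Under median scaling 61.3% of the differing probes were higher in PC3, in place of 49.9%, with median log2 differences of 1.54 among the higher and -1.61 among the lower probes. Among graded changes it was 63.4% (3760 higher and 2167 lower) in place of 49.9%. The switches numbered 407 and 394 under median scaling, as they are read largely from ranks within each array. Whether the brighter upper range of PC3 lies in the cells or in the array was not tested.

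The effect grew with level. The compared probes were put into 10 equal bins by their mean level. In the brightest bin, 19.8% were at least 2-fold higher and 19.0% lower in PC3 after quantile normalization, against 36.6% and 11.9% after median scaling. The median log2 difference in that bin was 0.13 under quantile normalization and 0.64 under median scaling. In the 4 dimmest bins no more than 4.85% of probes differed 2-fold under quantile normalization, and 32.1% to 45.8% did in the 5 brightest. The offset added in background correction narrows the differences of dim probes relative to a correction without an offset, which was not run. Against no background correction, the correction used gave more 2-fold calls, with 3253 higher and 3263 lower in place of 2598 and 2633. How far the offset shaped the low shares in the dim bins was not tested.

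**Figure D5:**
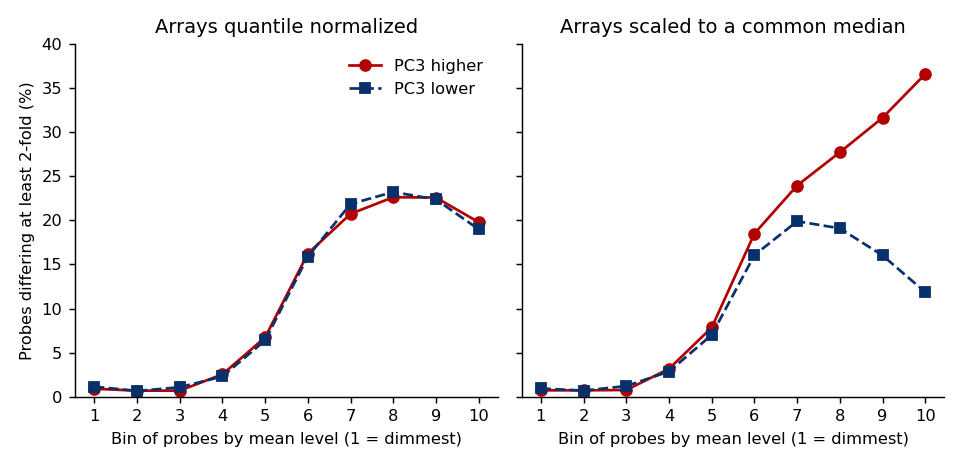
Share (%) of compared probes at least 2-fold higher (red circles) or lower (blue squares) in PC3, in 10 bins of mean level, after quantile normalization (left) and after scaling to a common median (right). The curves overlie on the left and part in the brighter bins on the right, reaching 36.6% higher and 11.9% lower in the brightest bin.

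The spread near background was read from 19599 probes at background in both DU145 and LNCaP-FGC, a choice that uses neither PC3 nor RWPE-1. Between PC3 and RWPE-1 these probes had a median absolute log2 difference of 0.19, and 95% of them differed by less than 0.65. At least 2-fold differences were found at 2.01% of them (165 higher and 228 lower in PC3). Among these were 90 probes switched on and 100 switched off. How much of this is array error was not tested.

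At the expression switches the other cancer lines lay between PC3 and RWPE-1 by the median. The rule favours this as well, as it picks probes where PC3 and RWPE-1 are far apart. At the 407 probes switched on, the median normalized log2 intensity was 8.48 in PC3, 7.09 in DU145 and 6.72 in LNCaP-FGC, against 6.46 in RWPE-1, where the median of each array was 6.68. For 90 of these probes both other cancer lines were at background (22.1%, against 15.4% of all compared probes), and for 66 both were above their 75th percentile (16.2%, against 35.8%). At the 393 probes switched off, the medians were 6.45 in PC3, 6.76 in DU145 and 6.77 in LNCaP-FGC, against 8.45 in RWPE-1. For 100 of these (25.4%) both other cancer lines were at background, and for 45 (11.5%) both were above their 75th percentile. At the 2699 graded probes higher in PC3, both other cancer lines lay above their 75th percentile for 2070 (76.7%), and the same held for 1747 (64.4%) of the 2711 graded probes lower in PC3. The class rules favour such contrasts, as graded probes are above background in PC3 and RWPE-1 and switches are not. The shares over all compared probes mix these levels, and shares among probes of like starting level were not counted. At the graded probes higher in PC3 the medians were 10.35 in PC3, 9.69 in DU145 and 9.44 in LNCaP-FGC, against 8.50 in RWPE-1. The same rules gave 424 probes switched on and 469 off in DU145, and 463 on and 659 off in LNCaP-FGC, against the same RWPE-1 array.

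The probe with the largest switch on was ILMN_2115135. Its raw intensity was 60991 in PC3 and 137 in RWPE-1, and the PC3 value was 403 times the raw median of the RWPE-1 array. The normalized log2 difference was 9.43, and 8.63 in the authors' deposited table. It was near background in DU145 (223) and LNCaP-FGC (151), so it was bright in PC3 alone. Its PC3 value lay close to the highest on the array (66181), where the scanner may no longer be linear. The largest graded difference with PC3 higher was at ILMN_2184373, with 39018 in PC3 and 267 in RWPE-1, a log2 difference of 7.37. It was also bright in DU145 (11493) and at background in LNCaP-FGC (167).

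The largest switch off was at ILMN_1651282, with 141 in PC3 and 21055 in RWPE-1, and the RWPE-1 value was 136 times the raw median of the PC3 array. The normalized log2 difference was -8.24, and -7.43 in the authors' deposited table. DU145 had 479 and LNCaP-FGC 172, so RWPE-1 was the bright line. The largest graded difference with PC3 lower was at ILMN_2219002, with 267 in PC3 and 32185 in RWPE-1, a log2 difference of -7.64. DU145 and LNCaP-FGC had 158 and 162 there. In its dim line each graded probe sat just above the 75th percentile of the array, which was 263 in PC3 and 252 in RWPE-1.

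The authors' deposited log2 table gave the same picture with smaller differences. Its differences between PC3 and RWPE-1 correlated with the renormalized ones at r = 0.995 across the 28640 probes, which come from the same 2 arrays and are not independent replicates. The slope of the renormalized on the deposited differences was 1.15. At least 2-fold differences numbered 2607 higher and 2650 lower in PC3. Of the renormalized calls, 80.1% of the higher and 81.2% of the lower probes were also 2-fold in the deposited table, and no probe was 2-fold in opposite directions. The gap was wider for switches than for graded changes. Switches on had a median log2 difference of 1.55 in the deposited table and 2.08 after renormalization, while graded higher probes had 1.32 and 1.48. Of the near-background probes, only 4.08% of the higher and 3.77% of the lower ones were 2-fold in the deposited table.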

How the data were processed

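Per the labels' protocols, bisulfite-converted DNA was hybridised to Illumina HumanMethylation27 beadchips and biotin-labelled cRNA to HumanHT-12 beadchips. Methylation was deposited as beta values, a fraction between 0 and 1. Expression was deposited as probe intensities from BeadStudio (version 3.1.3, per the labels), which had neither background subtraction nor a common scale, judging from their values. A deposited log2 table shares 1 distribution over its 4 columns; how it was made is not given in the sources used here.

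Intensities were corrected with limma (version 3.58.1 in R 4.3.3) by normexp with an offset of 50 and quantile normalized over 4 arrays; betas were used as deposited. Differences were counted by size (2-fold or 0.3 in beta) with no test, as each group has 1 array, and the number of arrays limits the precision. The assignment of classes was tested on simulated data with planted changes, which says nothing of the error of these arrays. Lines, thresholds and rules were chosen with earlier results of these data known. For want of gene names, 2 identifiers in each direction per assay are named: the largest switch and the largest graded change. Marker gene lists and the join of both assays by gene were planned but could not be used. Alternatives covered background correction, scaling, filters and thresholds.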

Additional observations from a re-analysis of the deposited data

How the results depend on the processing

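Of 70 recounts under other settings, 52 stayed within 1.5 times the reported count and 18 did not, nearly all of them through a change of threshold, class limit or scale of the difference. A count that stayed is not always a check. The on cutoff has no part in the graded rule, so the graded counts of 2699 and 2711 could not change with it. Without the filter on dim probes the counts were again 3253 and 3263. The limit of 1.5 also passes a shift of balance, as median scaling gave 4344 higher and 2741 lower probes. A 4-fold threshold gave 850 probes higher and 1116 lower in PC3, of which 218 were switched on, 199 switched off, 632 graded higher and 917 graded lower. The same threshold with arrays scaled to a common median, chosen after seeing the data, gave 1182 higher and 851 lower, so the excess of lower probes at 4-fold turned into an excess of higher ones. An on cutoff at the 85th percentile left 120 probes switched on and 125 switched off. A beta threshold of 0.2 gave 1953 losses, and a threshold of 0.5 gave 1401 gains and 499 losses. Class limits of 0.1 and 0.9 gave 204 switches to methylated and 11 to unmethylated, and limits of 0.25 and 0.75 gave 246 to unmethylated. Quantile-normalized betas gave 197 switches to unmethylated, and a difference of at least 2 in log2(beta / (1 - beta)) gave 4291 gains. The 8 named probes and sites kept their direction and stayed past the size threshold under every scaling tried, though 2 graded sites became switches. No paired analysis was possible because each line has 1 array per assay. The planned comparison by gene was not run, as no gene names were at hand.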
